A study of Sus scrofa with 6 samples.

Results

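The immediate early genes EGR1, FOS, FOSB, JUN, JUNB, JUND, ATF3, MYC, IER3 and DUSP1 were followed in scrapings of the uterine mucosa of the sow. All probe sets that the annotation of the Affymetrix porcine array gives to 1 of these 10 genes were taken, which gave 9 of the 23999 probe sets tested. EGR1 has 3 of them, and FOS, JUN, ATF3, MYC, IER3 and DUSP1 have 1 each. FOSB, JUNB and JUND are listed in the current pig gene table but are named by 0 probe sets and are not analysed here. The genes were chosen by the difference between the horns on these same arrays, in which an EGR1 probe set had been seen to be higher with embryos, so the values of that comparison are given as a description and support nothing further. Each of 3 weaned crossbred sows (Landrace x Large White) had spermatozoa injected into 1 oviduct and the same diluent without spermatozoa into the opposite one, under anaesthesia. On day 6 the horn on the inseminated side held blastocysts, called embryo here, and the horn on the other side held unfertilised eggs, called oocyte. Both horns were flushed, the mucosa of the first 10 cm next to the oviduct was scraped with a glass slide, and RNA from each horn went to its own array, with 3 embryo and 3 oocyte arrays. The 2 horns of a sow share her blood, hormones and anaesthesia, and only the contents of the horn and the sperm in its oviduct were meant to differ.

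Immediate early genes are switched on directly by signals that reach a resting cell, with no need for new protein, and their short-lived transcripts vanish again soon after. In the best known route a growth factor receptor activates the kinases ERK1 and ERK2, which act on ELK family proteins bound beside serum response factor at the promoters of EGR1 and FOS. FOS family proteins pair with JUN family proteins through leucine zippers to form the transcription factor AP-1, and DUSP1 is a phosphatase that switches the kinases off again. In rodents, oestradiol is known to induce Fos, Jun and Myc in the uterus.

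The values are MAS5 signals in arbitrary units on a linear scale. The median signal of an array ran from 30.6 to 35.8. For the comparisons the log2 signals were normalized between arrays by cyclic loess, and a log2 fold change is embryo minus oocyte, with its standard error from limma. Unless stated, the fit had no term for the sow and did not use the pairing of horns. Its standard errors therefore include differences between sows. In scraped tissue, fewer cells of a type and less RNA per cell cannot be told apart. Over the whole array 0 of 23999 probe sets (0%) passed a Benjamini-Hochberg adjusted p of 0.05 between embryo and oocyte, and at an unadjusted p under 0.05 limma had 311 higher (1.3%) and 381 lower (1.59%). Of the 9 immediate early probe sets 0 passed the adjusted threshold, 1 was among the higher and 0 among the lower at the unadjusted one.

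EGR1, a zinc finger transcription factor, gave different answers at its 3 probe sets. At Ssc.19629.2.S1_s_at the signal was 637, 558.5 and 602 in the embryo horns of sows 1, 2 and 3, against 451, 282 and 369 in the oocyte horns. All 3 embryo arrays lay above all 3 oocyte arrays, and it was the only 1 of the 9 probe sets whose groups did not overlap. Over the whole array 4.03% of probe sets were separated in that direction. The mean was 599 ± 39.1 in embryo and 367 ± 84.4 in oocyte horns (SD, n = 3 sows each), a log2 fold change of 0.73 (standard error 0.18, and 0.098 with the sow in the fit), or 1.65-fold. The ratio of the signals, embryo over oocyte, was 1.41, 1.98 and 1.63 in sows 1, 2 and 3.

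The other EGR1 probe sets did not follow. Ssc.19629.1.A1_at had 704, 402.1 and 465 in the embryo horns and 697, 414 and 460.5 in the oocyte horns of the same sows. The horns of each sow were nearly equal, with ratios of 1.01, 0.970 and 1.01. The log2 fold change was -0.01 (standard error 0.27, and 0.074 with the sow in the fit). Ssc.16460.1.S1_at had 189.7, 67.8 and 162 in the embryo horns and 219, 95.4 and 91.5 in the oocyte horns. It was lower with embryos in sows 1 and 2 and higher in sow 3. Its log2 fold change was 0.04 (standard error 0.44, and 0.21 with the sow in the fit). The log2 fold change of EGR1 therefore depends on the probe set, and the mean of its 3 probe sets lay at 0.25. The ending _s_at is Affymetrix's mark for probes shared by several transcripts, and the transcripts meant here were not examined. The MYC probe set, SscAffx.8.1.S1_s_at, has the same ending.

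**Figure D1:**
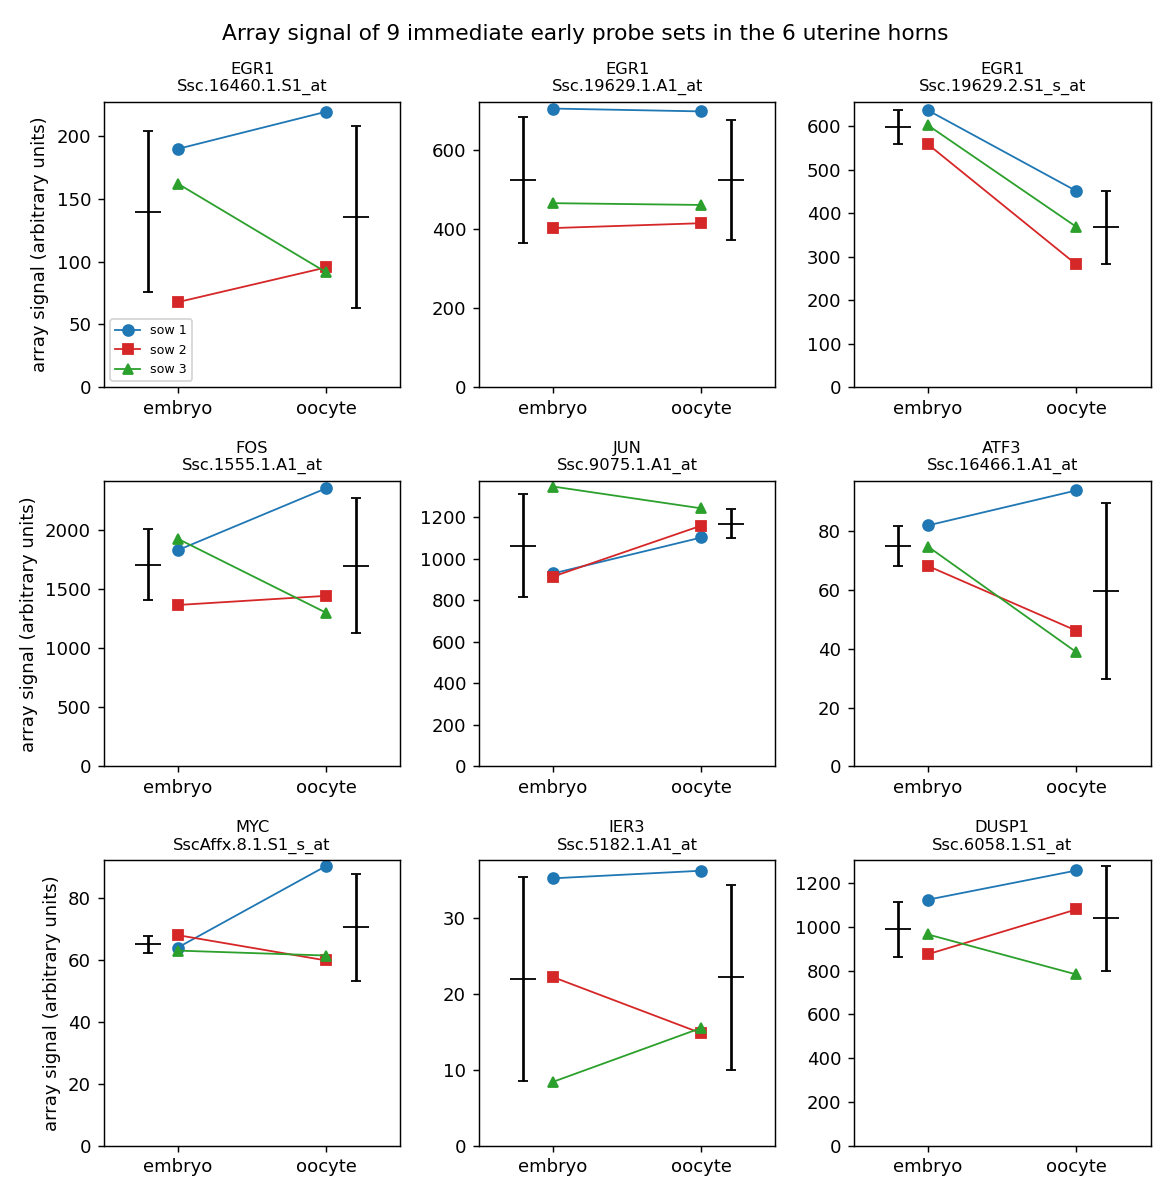
Array signal (y axis, arbitrary units, from 0) in embryo and oocyte horns for the 9 immediate early probe sets. Symbols and lines mark the sows, and black bars beside them the mean ± SD of 3 sows; the embryo horns lie above all oocyte horns for EGR1 at Ssc.19629.2.S1_s_at and overlap with them in the other panels.

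Among the AP-1 genes, FOS had a signal of 1832, 1368 and 1928 in the embryo horns of sows 1, 2 and 3, against 2357, 1445 and 1302 in the oocyte horns. The highest and the lowest signal were both in oocyte horns, those of sows 1 and 3. The log2 fold change was 0.05 (standard error 0.24, and 0.15 with the sow in the fit). JUN, the usual partner of FOS, had 929.6, 915 and 1349 with embryos and 1103, 1160 and 1243 with oocytes. It was lower with embryos in sows 1 and 2 and higher in sow 3, with overlapping groups. Its log2 fold change was -0.16 (standard error 0.16, and 0.095 with the sow in the fit).

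ATF3, a stress-induced member of the same leucine zipper superfamily, had 82.0, 68.2 and 74.8 with embryos and 93.9, 46.2 and 38.9 with oocytes. The embryo horns were close to each other (75.0 ± 6.90, SD, n = 3 sows) and the oocyte horns wide apart (59.7 ± 29.9). Sow 1 was lower with embryos, at a ratio of 0.873, and sows 2 and 3 were higher, at 1.48 and 1.92. The log2 fold change was 0.43 (standard error 0.31, and 0.21 with the sow in the fit). With no sow term it ran from 0.18 without the oocyte array of sow 3 to 0.80 without that of sow 1.

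MYC, a transcription factor of cell growth, had 64.1, 68.1 and 63.1 with embryos and 90.5, 59.9 and 61.5 with oocytes. Its signals lay in a narrow range except for the oocyte horn of sow 1. The log2 fold change was -0.10 (standard error 0.21, and 0.17 with the sow in the fit). DUSP1, the kinase phosphatase, had 1125, 875 and 966 with embryos and 1258, 1080.1 and 783 with oocytes. It was lower with embryos in sows 1 and 2 and higher in sow 3. Its log2 fold change was -0.05 (standard error 0.19, and 0.11 with the sow in the fit). IER3, a small protein that affects survival and ERK signalling, was dim, at 35.2, 22.2 and 8.4 with embryos and 36.2, 14.8 and 15.5 with oocytes. Its log2 fold change was -0.13 (standard error 0.56, and 0.38 with the sow in the fit). Its mean lay under the array's median, unlike the other 8 probe sets.

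The direction of most of these differences changed from sow to sow. In sow 3 the embryo horn was higher for 8 of the 9 probe sets (all but IER3), with a median log2 difference of 0.32, where 50.4% of all probe sets were higher. In sow 1 the embryo horn was lower for 7 of 9 (median -0.22), the exceptions being EGR1 at Ssc.19629.2.S1_s_at and, by 0.00385, at Ssc.19629.1.A1_at. In sow 2 it was lower for 5 of 9 (median -0.05), with EGR1 at Ssc.19629.2.S1_s_at, IER3, ATF3 and MYC above 0. A single probe set of the 9 kept 1 direction in all 3 sows, EGR1 at Ssc.19629.2.S1_s_at, which was higher, and 0 were lower in all 3. Over the array 14.9% of probe sets were higher and 14.8% lower in all 3 sows. The median log2 fold change of the 9 was -0.01, against 0.01 over all probe sets tested.

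**Figure D2:**
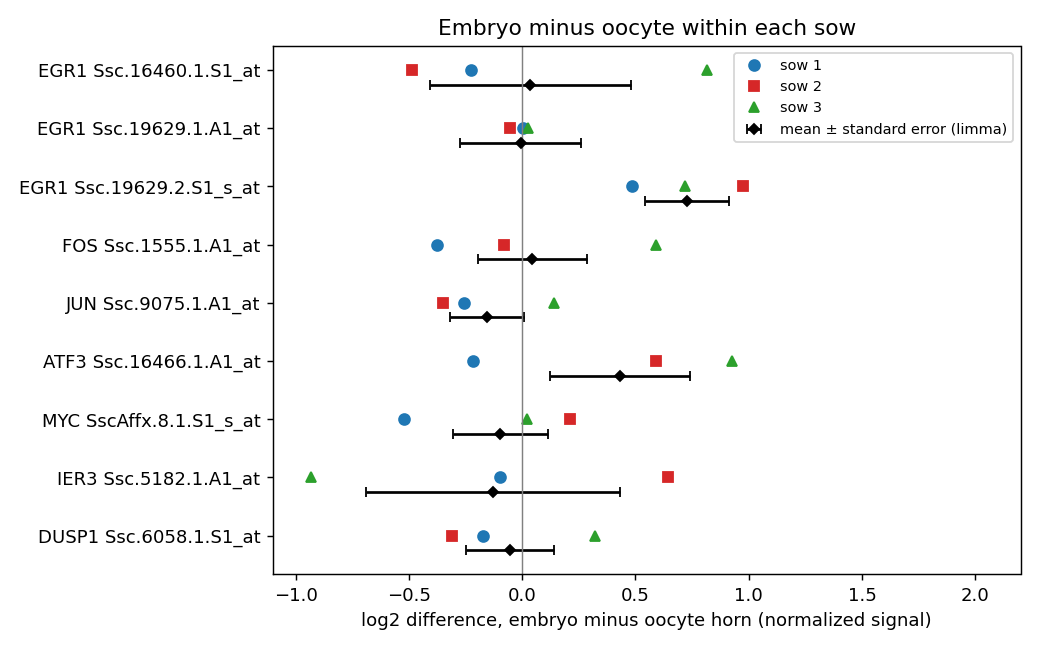
Log2 difference of the normalized signal, embryo minus oocyte horn, within each sow (coloured symbols) for the 9 probe sets. Black marks under each are the limma mean ± standard error of the fit without a sow term. The triangles of sow 3 lie right of 0 for 8 of the 9 probe sets, and all 3 sows lie right of 0 for EGR1 at Ssc.19629.2.S1_s_at.

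Between sows, 2 of the 3 EGR1 probe sets differed in level, and the other 7 probe sets did not pass the test. The choice of the genes did not use differences between sows. They were tested with limma's F test on the sow terms in a model of horn and sow, adjusted over all 23999 probe sets, of which 2707 passed (11.3%). Of the 3 EGR1 probe sets 2 passed, Ssc.19629.1.A1_at (adjusted p = 0.000876) and Ssc.16460.1.S1_at (adjusted p = 0.0203). Ssc.16460.1.S1_at no longer passed without the embryo array of sow 2 (adjusted p = 0.0528) or without the oocyte array of sow 1 (adjusted p = 0.119). At Ssc.19629.1.A1_at sow 1 stood above sow 2 by 0.83 and above sow 3 by 0.64 on the log2 scale (standard error 0.091 each). At Ssc.16460.1.S1_at it stood above them by 1.34 and 0.76 (standard error 0.26 each), or 2.53-fold and 1.69-fold. The other 7 probe sets did not pass, with an adjusted p of 0.0616 for the remaining EGR1 probe set, 0.0879 for DUSP1, 0.106 for FOS, 0.129 for JUN, 0.140 for IER3, 0.218 for ATF3 and 0.693 for MYC.
The 2 of 9 that passed, both of EGR1, are 22.2%, against 20.8% of all probe sets above the median signal. At the brightest probe set of each gene 1 of 7 passed (14.3%), against 14.9% of all genes. A fit restricted to probe sets above the median signal leaves out IER3. In that fit 4 of 8 (50%) passed, against 26.5% of all its probe sets, and 2 of 6 genes (33.3%), against 25.2% of all genes. With 1 array left out from 1 to 6 of the 9 passed, and nothing particular to these genes was tested. Without the variance trend of limma 0 of all probe sets passed, with 3709 at an unadjusted p under 0.05. Over all probe sets from 1387 to 3683 passed with 1 array left out, with 1387 without the embryo array of sow 1, 1433 without the oocyte array of sow 1 and 1728 without the embryo array of sow 2.

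Sow 1 stood above sow 2 in the fit for 9 of the 9 probe sets and above sow 3 for 8, with JUN below sow 3 by 0.32, where 49.4% and 49.9% of all probe sets had sow 1 above sow 2 and above sow 3. Both arrays of sow 1 lay above the other 4 arrays for 5 of the 9, which were EGR1 at Ssc.19629.1.A1_at and Ssc.16460.1.S1_at, ATF3, IER3 and DUSP1. This count was looked at after the values had been seen, and the same held for 13.9% of all probe sets and 18.6% of those above the median signal. FOS missed it because the embryo horn of sow 3 (1928) lay above that of sow 1 (1832).
Markers of several cell types, though not of leukocytes, moved with sow 1, and those of stroma and smooth muscle are named here whatever their signal. The summed signal of 6 stroma markers (VIM, COL1A2, COL3A1, DCN, LUM and PDGFRB) was 6842 and 7324 in the embryo and oocyte horns of sow 1, against 3398 to 5145 in the other 4 horns. That of 4 smooth muscle markers (ACTA2, TAGLN, DES and CNN1) was 1365 and 2141 in sow 1, against 458 to 908. That of 8 epithelium markers was lowest in sow 1, at 8436 and 8689 against 10851 to 11570. Of the 8, only CLDN3 went the other way, at 288 and 295 in sow 1 against 144 to 200. The summed signal of 5 endothelium markers was also highest in sow 1, at 317 and 275 against 201 to 252. The summed signal of 2 red cell markers was lowest in sow 1, at 423 and 362 against 656 to 966. Of these ALAS2, an enzyme of haem synthesis, was lowest in sow 1 and passed the F test (adjusted p = 0.000104 from limma). HBB went the other way, with sow 1 0.24 above sow 2 and 0.27 above sow 3 (log2), and did not pass. The summed signal of 6 leukocyte markers was 122 and 118 in sow 1, inside the range of the other 4 horns, 91.8 to 174. The GAPDH control ratio, the signal of the 5' control probe set over that of the 3' one, was also highest in sow 1, at 0.243 and 0.355 against 0.1305 to 0.226. So was that of actin, at 0.1485 and 0.219 against 0.0577 to 0.118, while that of EF1a overlapped, at 1.117 and 1.274 against 0.871 to 1.144. Their part in the difference between sows was not tested.

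**Figure D3:**
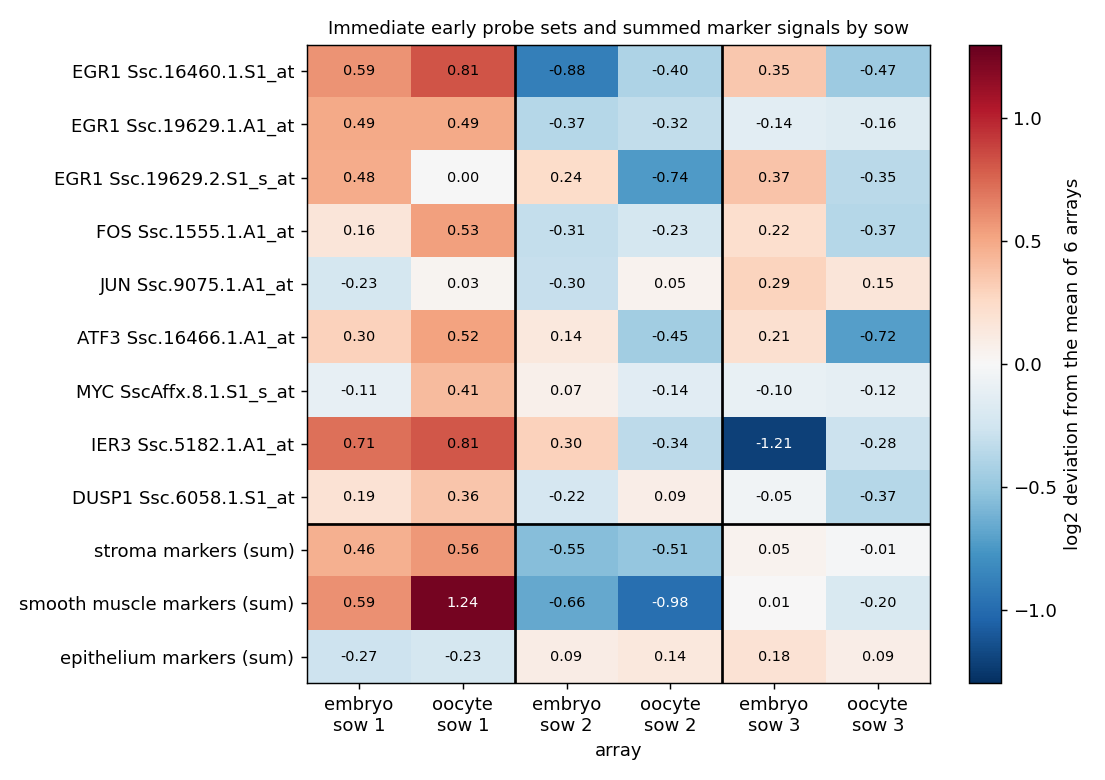
Log2 deviation of each array from the mean of the 6 arrays (colour and printed value) for the 9 probe sets, with the summed signals of the stroma, smooth muscle and epithelium markers below the line. Columns are the embryo and oocyte horns of each sow; both columns of sow 1 are above 0 for stroma and smooth muscle markers, below 0 for epithelium markers, and above 0 for 6 of the 9 probe sets.

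Between the groups the same markers overlapped. The summed signal of the stroma markers ran from 3398 to 6842 in embryo and from 3499 to 7324 in oocyte horns, and within sows 1, 2 and 3 the ratio was 0.934, 0.971 and 1.045. For the smooth muscle markers the ratio was 0.638, 1.25 and 1.15. Epithelium markers were bright in every horn, and 8 of the 9 listed are on the array, all above its median. The 6 leukocyte markers with a probe set were all under the median, with a summed signal of 119 to 141 in embryo and 91.8 to 174 in oocyte horns. The GAPDH control ratio was lower in the embryo horn of each sow, at 0.243, 0.1305 and 0.199 against 0.355, 0.200 and 0.226 in the oocyte horn. The same ratio of actin was also lower in each embryo horn, from 0.0577 to 0.1485 against 0.105 to 0.219 in the oocyte horns. That of EF1a did not overlap between the groups, at 1.117, 0.871 and 1.102 in the embryo horns of sows 1, 2 and 3 against 1.274, 1.135 and 1.144 in the oocyte horns, as EGR1 at Ssc.19629.2.S1_s_at did not. Their part in the EGR1 values was not tested.

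Several of the 9 probe sets had like patterns over the 6 arrays, which share 3 sows and are not independent points. Of 36 pairs, 16 had a Pearson r above 0.5 and 6 were below 0. The same count was not made for other probe sets. FOS was closest to EGR1 at Ssc.16460.1.S1_at (r = 0.94), with DUSP1 (0.82) and ATF3 (0.81) next. EGR1 at Ssc.19629.2.S1_s_at was closest to ATF3 (0.75), and its r with the other EGR1 probe sets was 0.415 and 0.425. The highest r of JUN with any of the others was 0.22.
The 6 probe sets most like the brightest EGR1 probe set, Ssc.19629.1.A1_at, among 6096 of 1 symbol and above-median signal, were those of SCARA5 (r = 0.998), COPS6 (0.998), PSMD8 (0.994), IGF2 (0.994), GADD45A (0.992) and RARRES2 (0.992). SCARA5, a ferritin receptor, had 415, 172.5 and 224 in the embryo horns of sows 1, 2 and 3 and 414.5, 171 and 212 in the oocyte horns. IGF2, a growth factor, had 137, 62.3 and 73.8 with embryos and 132, 69.4 and 78.1 with oocytes. Both were high in both horns of sow 1. GADD45A, a growth arrest gene that is itself induced by stress, had 67.5, 35.8 and 43.6 with embryos and 68.8, 40.7 and 44.0 with oocytes. COPS6 and PSMD8, subunits of the COP9 signalosome and of the proteasome, had the same order of sows with a smaller spread, COPS6 from 336 to 419 and PSMD8 from 602 to 678.

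Of 50 further immediate early genes that were listed, 35 have a probe set, read at the brightest one. Between embryo and oocyte 0 passed the adjusted threshold and 0 had an unadjusted p under 0.05. By their mean 21 were higher and 14 lower with embryos, with a median log2 fold change of 0.08, against 0.01 over all genes at their brightest probe set. Of the 35, 6 were higher and 3 lower in all 3 sows, against 1018 and 921 of all 6765 genes at their brightest probe set. Among those above the median signal the highest log2 fold changes were those of PLK2, a polo-like kinase (0.38, standard error 0.46), and THBS1, the matrix protein thrombospondin 1 (0.38, standard error 0.26). The lowest were those of GEM, a small GTP-binding protein (-0.15, standard error 0.20), and BTG2, an antiproliferative gene (-0.14, standard error 0.38).
Between sows 8 of the 35 passed the F test (22.9%, against 14.9% of all genes at their brightest probe set and 20.8% of all probe sets above the median signal). In the fit restricted to probe sets above the median, 10 of 23 passed (43.5%), against 25.2% of genes, and nothing particular to the list was tested. Named after their values were seen, sow 1 was highest in the fit for CYR61, ID1, BTG1, KLF4, PLK2 and ZFP36, and the lowest for CEBPB and GEM. CYR61, a matrix signalling protein, stood 1.10 above sow 2 and 0.89 above sow 3 (log2, adjusted p = 0.00278 from limma). ZFP36, which destabilises short-lived mRNAs, stood 0.36 and 0.49 above them (adjusted p = 0.0392 from limma), and CEBPB, a leucine zipper factor, 0.56 and 0.33 below (adjusted p = 0.0203 from limma).

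**Figure D4:**
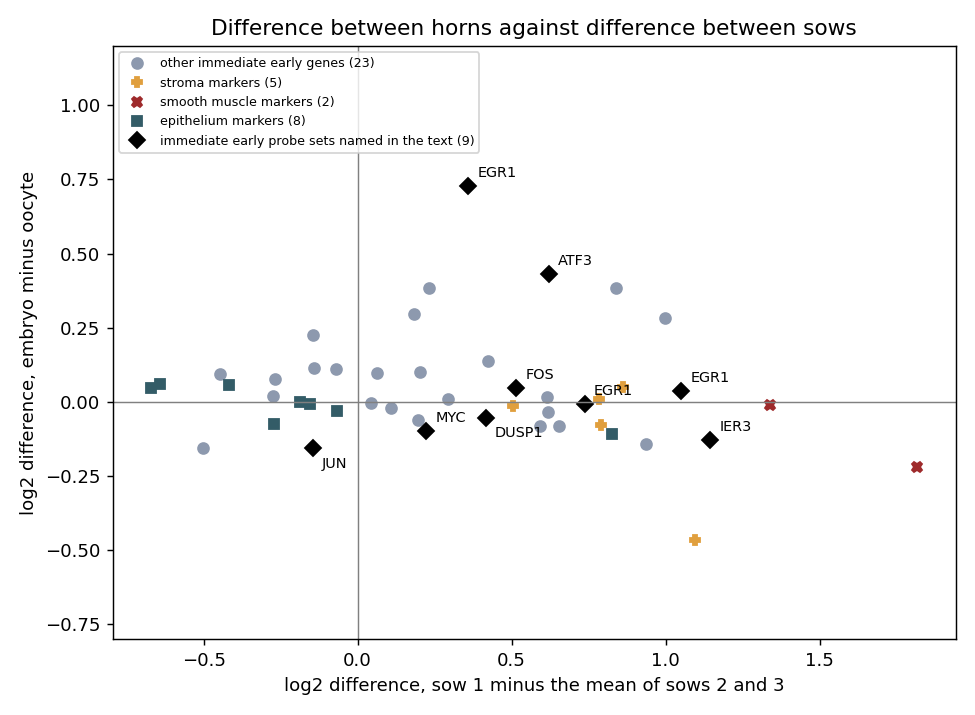
Log2 difference embryo minus oocyte (y axis) against the log2 difference of sow 1 minus the mean of sows 2 and 3 (x axis). Black diamonds are the 9 probe sets, and the other symbols are genes above the median signal from the lists in the legend; 8 of the 9 diamonds lie right of 0, as do all stroma and smooth muscle markers shown, while EGR1 at Ssc.19629.2.S1_s_at is the highest point.

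In the kinase route 10 of 24 listed genes have a probe set, 2 higher and 8 lower with embryos (median log2 fold change -0.05), and 0 passed. MAPK3, which encodes ERK1, had 200.1 ± 38.9 with embryos and 187 ± 24.9 with oocytes (SD, n = 3 sows each, log2 fold change 0.08), and MAP2K4, which activates JNK, lay at 0.13. EGFR, the epidermal growth factor receptor, lay at -0.07 and RPS6KA1, a kinase downstream of ERK, at -0.12. SRF, ELK1, ELK3 and ELK4 are named by 0 probe sets.
Of 14 listed partners and inhibitors 5 have a probe set, and 0 passed. FBXW7, which marks MYC and JUN proteins for degradation, was at -0.45 (standard error 0.20). MXI1, a MYC antagonist that competes for MAX, was at -0.30 (standard error 0.21). Of the 5, 3 were lower with embryos in all 3 sows by their normalized values, FBXW7 and MXI1 among them. Over the array this held for 921 of 6765 genes at their brightest probe set. MXD4, another MYC antagonist, was at 0.13 and ATF4 at 0.07. DUSP6 and DUSP14, phosphatases related to DUSP1, lay at -0.02 and -0.05.
The 11 heat shock genes with a probe set had a median log2 fold change of -0.02, 4 higher and 7 lower, and 0 passed. DNAJB1, a co-chaperone of HSP70, was lowest at -0.34 (standard error 0.21) and HSPD1, the mitochondrial chaperonin, highest at 0.20 (standard error 0.10). Both arrays of sow 1 lay above the other 4 for 6 of the 11 and, counted in the same way at the brightest probe set, for 4 of the 7 immediate early genes, against 16.9% of all genes.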

How the data were processed

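Uterine RNA of 3 sows was measured on 6 Affymetrix porcine arrays, 3 per group. The deposited values are intensity signals that the authors made with MAS5 (version 5.1 in the submitters' processing notes), each array scaled to a trimmed mean of 100.02 with the top and bottom 2% left out. Lowess normalization, which the methods name, had not been applied to these values, and the authors' mixed model on single probes was not repeated. Of 24123 probe sets, 124 controls were removed. Signals under 0.1 were set to 0.1, taken to log2, and normalized by cyclic loess with no filter on low signals. The 23999 probe sets were fitted with limma 3.58.1 in R 4.3.3 (variance trend, Benjamini-Hochberg at 0.05), and the script was tested on simulated data. The number of arrays limits the precision. Plots used matplotlib 3.10.9.

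A symbol is given for 10069 probe sets, several for 198 and none for 13732, and 9961 symbols were checked in the current gene table, which changed 0. The replicate number was taken as the sow, since ratios that the methods give per animal for 1 gene match arrays of equal number, and, after removal of the group mean, the paired arrays had correlations of 0.207, 0.173 and 0.100.

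All probe sets of the genes are named. From each of 11 other lists at most 4 genes are named, the 2 highest and 2 lowest log2 fold changes above the median signal, and the 6 probe sets most like EGR1 and partners of a member may be named too. Outside this rule, and after their values were seen, 6 more immediate early genes that differed between sows and all stroma and smooth muscle markers measured are named. The members and lists were chosen with earlier results of these data known. Promoter motifs were not examined here. Alternatives were the deposited values, quantile or median scaling, an added signal of 32, a filter at the median, limma without its variance trend, a sow block, 1 averaged value per gene, and the omission of each array in turn.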

Additional observations from a re-analysis of the deposited data

How the results depend on the processing

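Between embryo and oocyte 0 probe sets passed the adjusted threshold under every alternative, and the 692 at an unadjusted p under 0.05 became 232 among probe sets above the median signal and 2088 with the sow as a block, with 560 to 1034 when 1 array was left out. With the block the smallest adjusted p was 0.0810, so no adjusted call changed. At an unadjusted p under 0.05 it gave 1 higher among the 9 probe sets and 1 higher among the 35 other immediate early genes. It gave 2 lower among the 5 partners, 1 higher and 1 lower among the 11 heat shock genes and 0 of the 10 kinase route genes. Over the array it gave 901 higher and 1187 lower of 23999 probe sets, and 245 and 266 of 6765 genes at their brightest probe set. The median log2 fold change of the 9 probe sets stayed between -0.15 and 0.25. EGR1 at Ssc.19629.2.S1_s_at lay between 0.54 and 0.91, JUN between -0.34 and -0.04 and ATF3 between 0.18 and 0.80. Each of the other 6 probe sets took the opposite sign when some single array was left out. The fits with 1 array left out had no sow term. They leave 1 sow with a single horn, so differences between sows enter these log2 fold changes. EGR1 at Ssc.19629.1.A1_at, nearly equal between the horns of each sow, ran from -0.26 to 0.24 in them.

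The number of probe sets that differed between sows, 2707, became 0 without the variance trend and ran from 1387 to 3683 with 1 array left out. Among the 9, the 2 that passed became 4 among probe sets above the median signal, 0 without the trend, and 1 to 6 with 1 array left out (1 without the oocyte array of sow 1, 4 without the embryo array of sow 1, 6 without the embryo or the oocyte array of sow 3). Without the trend the adjusted p was 0.270 for EGR1 at Ssc.19629.1.A1_at and 0.369 at Ssc.16460.1.S1_at. The cause was not tested. Of the 6 probe sets most like EGR1, 4 were among the 6 with the deposited values and 5 with quantile normalization. IER3 is dim, and 25.4% to 29.0% of an array's signals lay under 10.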
